A study of Mus musculus with 20 samples.

Results

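The difference between Xiap-/- and wild-type crypts was compared between mice housed apart by genotype and mice that had shared cages. All 20 crypt libraries entered this comparison, and 9521 of the 23020 genes in the deposited values, those with a mean of at least log2 of 10 over the libraries, were tested. The mice, of strain C57BL/6, formed 4 groups. Wild-type mice housed apart gave 6 libraries and Xiap-/- mice housed apart gave 4. Wild-type and Xiap-/- mice kept together for 4 weeks gave 5 libraries each. The genotype difference is the mean of the Xiap-/- libraries minus the mean of the wild-type libraries in the same housing. The difference of differences is the genotype difference in co-housed mice minus the genotype difference in mice housed apart, so that a value above 0 marks a gene whose Xiap-/- level, relative to wild type, was higher after co-housing. All levels and differences below are on the log2 scale of the deposited normalized values, and a difference of 1 on it is a doubling of the normalized value.

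XIAP is a ubiquitin ligase of the inhibitor of apoptosis family. It binds caspases, and it also carries signals from the bacterial sensor NOD2 to the NF-kB pathway. Small intestinal crypts hold stem cells, dividing progenitors and Paneth cells, whose defensins, lysozyme and lectins act on gut bacteria. Mice in a shared cage eat each other's faeces and so exchange gut microbes, which makes co-housing the usual way to separate what a genotype does from what its cage does. Chaperones of the heat shock family fold or refold proteins, and the inducible members are switched on by the factor HSF1, which binds inverted repeats of GAA in their promoters.

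Libraries were made from the 3′ ends of polyadenylated RNA, with unique molecular identifiers to count molecules. Cage, age, sex and the deleted part of Xiap are not given in the labels, and the text on RNA extraction names liver where the other labels name crypts. The crypt label was checked with marker lists. The Paneth product Defa24 had the highest mean of the alpha-defensin list, at 14.17, while 2 of 12 hepatocyte, 1 of 16 stromal and 0 of 8 glial markers reached the minimum mean. Of 22 proximal absorptive genes 21 reached it, with Apoa1 highest at 13.48, and so did 15 of 19 T cell markers. The libraries therefore also carried transcripts of absorptive and T cells. The lowest correlation between 2 libraries was 0.973. The number of molecules per library is unknown, and as a stand-in the share of rare genes that stood above their own floor was taken. Housed apart, this share averaged 7.71% ± 3.69 (SD, n = 6) for wild type and 17.1% ± 10.5 (n = 4) for Xiap-/-, and after co-housing 8.74% ± 1.47 and 8.77% ± 2.77 (n = 5 each) in the same order. Library 2 of the Xiap-/- mice housed apart stood highest, at 32.1%. In bulk RNA, fewer cells of a type and less RNA per cell cannot be told apart.

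Xiap itself, on chromosome X (GRCm38, 42059679 to 42109656), was read first. Housed apart, wild-type libraries had a lowest level of 6.56, a median of 6.79 and a highest of 7.08, and the Xiap-/- libraries had 6.48, 6.37, 6.43 and 6.25. In co-housed wild-type mice it was 6.76, 6.84, 6.80, 6.60 and 6.36, and in co-housed Xiap-/- mice 6.91, 6.68, 6.66, 6.56 and 6.29. The Xiap-/- libraries housed apart lay below every wild-type library of that housing, whereas the co-housed genotypes overlapped over most of their range. The difference of differences was 0.37 ± 0.15 (SE, limma adjusted p = 0.614). Tags from the 3′ end may lie outside the deleted part, so this transcript checks no label.

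One gene passed the test. Hspa1b, which encodes the stress-inducible chaperone HSP70, was higher in co-housed Xiap-/- mice than in each of the other 3 groups, and its genotype difference rose with co-housing. The gene lies on chromosome 17 (GRCm38, 34956436 to 34959238, minus strand). Its level ran from 3.03 over a median of 3.26 to 3.45 in wild-type mice housed apart. Xiap-/- mice housed apart had 3.25, 3.33, 3.33 and 3.64. Co-housed wild-type mice had 3.18, 3.21, 3.10, 3.27 and 3.19. Co-housed Xiap-/- mice had 4.47, 4.30, 4.35, 4.00 and 5.00. The lowest of these 5 libraries lay above the highest of the other 15, while the other 3 groups overlapped each other.

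The genotype difference of Hspa1b was 0.14 ± 0.12 (SE) in mice housed apart and 1.23 ± 0.12 in co-housed mice. Its difference of differences was 1.10 ± 0.17 (95% interval 0.76 to 1.43, limma adjusted p = 0.00254 over 9521 genes). It was the only gene of 9521 to pass at an adjusted p of 0.05, which is 0.0105%. Hspa1b reached the minimum mean of 3.32 through the co-housed Xiap-/- libraries, since 2 of the other group means were 3.25 and 3.19. With every gene of the file tested, its adjusted p was 0.00179. Leaving out each of the 20 libraries in turn kept the difference of differences between 0.95 and 1.20, with adjusted p of at most 0.0170.

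A pattern of co-housed Xiap-/- libraries all above the other 15 was found in 3 of 9521 genes (0.0315%), and the opposite pattern in 2 (0.021%). Beside Hspa1b, the 3 higher genes were Banp, a DNA-binding nuclear protein, and Mospd3. The 2 lower genes were Chid1 and Sccpdh. Banp had 5.23, 5.26, 5.06, 5.04 and 4.94 in co-housed Xiap-/- mice, against 4.31 to 4.76 in co-housed wild-type mice, and a difference of differences of 0.55 ± 0.15 (adjusted p = 0.393). Mospd3 (0.26 ± 0.12, adjusted p = 0.679), Chid1 (-0.25 ± 0.13, adjusted p = 0.735) and Sccpdh (-0.29 ± 0.13, adjusted p = 0.669) had small values that missed the threshold. These genes other than Hspa1b and Banp were chosen after their values were seen.

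The promoter of Hspa1b is shown because the gene passed the test, and those of Hsph1 and Chordc1 because they are named members of its family that hold the longest run of heat shock units, a choice made after the motif search. Each runs from 250 bases before to 50 bases after the gene's start in RefSeq, 5′ to 3′ on the gene's strand (GRCm38.p6). Gene positions in the text are from GENCODE, whose starts can differ from those of RefSeq. Capitals mark GAANNTTC or TTCNNGAA, a pair of adjoining inverted units of the heat shock element. Hspa1b is at chr17:34959189-34959488 (minus strand), Hsph1 at chr5:149636287-149636586 (minus strand, the first of 2 starts listed) and Chordc1 at chr9:18292017-18292316 (plus strand).
Hspa1b: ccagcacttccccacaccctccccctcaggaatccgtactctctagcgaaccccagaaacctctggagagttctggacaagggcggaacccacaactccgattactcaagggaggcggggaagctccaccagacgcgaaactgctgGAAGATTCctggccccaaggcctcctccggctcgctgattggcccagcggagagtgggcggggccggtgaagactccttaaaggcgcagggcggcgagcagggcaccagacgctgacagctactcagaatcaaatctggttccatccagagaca
Hsph1: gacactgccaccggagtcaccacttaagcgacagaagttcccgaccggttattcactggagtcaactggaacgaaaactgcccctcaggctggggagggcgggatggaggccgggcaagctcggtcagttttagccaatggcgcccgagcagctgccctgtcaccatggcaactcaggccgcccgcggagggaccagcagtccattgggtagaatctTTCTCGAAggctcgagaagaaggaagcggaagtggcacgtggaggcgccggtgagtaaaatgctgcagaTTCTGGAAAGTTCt
Chordc1: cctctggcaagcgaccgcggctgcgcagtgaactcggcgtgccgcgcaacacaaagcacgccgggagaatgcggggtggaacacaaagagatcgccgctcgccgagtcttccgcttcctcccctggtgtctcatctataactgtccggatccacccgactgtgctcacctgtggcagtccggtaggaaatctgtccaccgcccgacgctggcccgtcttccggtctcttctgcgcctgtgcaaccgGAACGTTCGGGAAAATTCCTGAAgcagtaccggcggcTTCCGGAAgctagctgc

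Hspa1b held 1 such match, starting at position -104 from the gene's start, Hsph1 held 3 and Chordc1 held 5, some of which overlap. The window of Dnajb1, not shown, held 0. Of 32851 promoters of this length in the RefSeq table, 15.1% held at least 1 match and 0.603% held the first run extended by 1 more GAA unit at the same spacing, on either strand. Promoters were found for 16 of the 20 genes of the heat shock list, and 11 of these 16 (68.8%) held the shorter and 4 (25%) the longer run. The 4 were Hsph1, Hspd1, Hspe1 and Chordc1. A listed gene was counted if any of its starts held a match, while the shares over all promoters count single windows, so the measures differ. Hspa1b and Hspa1a, whose windows differ at 4 of 300 bases, are both among the 11. A match describes letters in this window and does not show that a factor was bound.

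Hspa1a, the neighbouring copy of Hspa1b (chromosome 17, 34969190 to 34972156), has a promoter window that differs from that of Hspa1b at 4 of 300 bases, and its coding sequence is nearly the same. The last 500 bases of the 2 annotated transcripts shared 0 of 426 stretches of 75 bases, the length of the read. A tag of that length without errors therefore matches only 1 of the 2 there. Matches with differing bases were not counted, and the aligner is not known. Its level was 2.80 to 3.17 in wild-type and 3.18, 3.13, 3.06 and 3.39 in Xiap-/- mice housed apart. Co-housed wild-type mice had 2.88, 2.84, 3.00, 2.98 and 3.03, and co-housed Xiap-/- mice 3.89, 3.76, 4.45, 3.39 and 4.52. Of the 5 co-housed Xiap-/- libraries, 4 lay above all others and the fifth stood level with the highest Xiap-/- library housed apart. The mean of Hspa1a lay under the minimum, so it was fitted only with every gene of the file, where its difference of differences was 0.87 ± 0.23 (adjusted p = 0.533).

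Hsph1, an HSP70-like exchange factor for HSP70 (chromosome 5, 149614287 to 149636376), had the next smallest p of the list. Its level ran from 6.47 over a median of 7.03 to 7.29 in wild-type mice housed apart, and was 6.71, 6.93, 6.52 and 6.74 in Xiap-/- mice of that housing. After co-housing it was 6.86, 6.95, 7.21, 7.18 and 7.42 in wild-type and 7.77, 8.05, 7.49, 7.28 and 7.65 in Xiap-/- mice. One co-housed Xiap-/- library, at 7.28, lay within the range of wild-type mice and the other 4 lay above it. This left a difference of differences of 0.76 ± 0.20 (95% interval 0.35 to 1.17), which missed the threshold (adjusted p = 0.429).

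Hspa8, Chordc1 and Dnajb1, chosen after their values were seen, had smaller values of the same sign. Hspa8, the constitutive HSP70 of the cytosol, had 10.18, 10.43, 10.12, 10.06 and 10.16 in co-housed Xiap-/- mice, against 9.76, 9.83, 9.90, 10.01 and 10.19 in co-housed wild-type mice. Its difference of differences was 0.34 ± 0.14 (adjusted p = 0.614). Chordc1, a partner of HSP90, had 0.34 ± 0.13 (adjusted p = 0.605), and Dnajb1, the J-domain partner that hands clients to HSP70, 0.30 ± 0.13 (adjusted p = 0.661). Hsp90ab1, the member with the highest mean, had 0.12 ± 0.17 (adjusted p = 0.915).

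Of the 20 heat shock chaperones listed, 16 reached the minimum mean. Their difference of differences was above 0 in 13 and below 0 in 3, with a median of 0.19, against 49.1% above 0 and a median of -0.0036 over all 9521 genes. At an unadjusted p under 0.05, 5 of 16 lay above 0 and 0 below, against 3.84% and 3.2% of all genes. The group whose mean was farthest from the median of the 4 group means was co-housed Xiap-/- for 11 of the 16, and for 18.5% of all genes. The list was chosen with earlier results of these libraries known, and with the depth stand-in as a covariate its median was 0.17. Members enter the count partly through the libraries in which they are high.

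**Figure D1:**
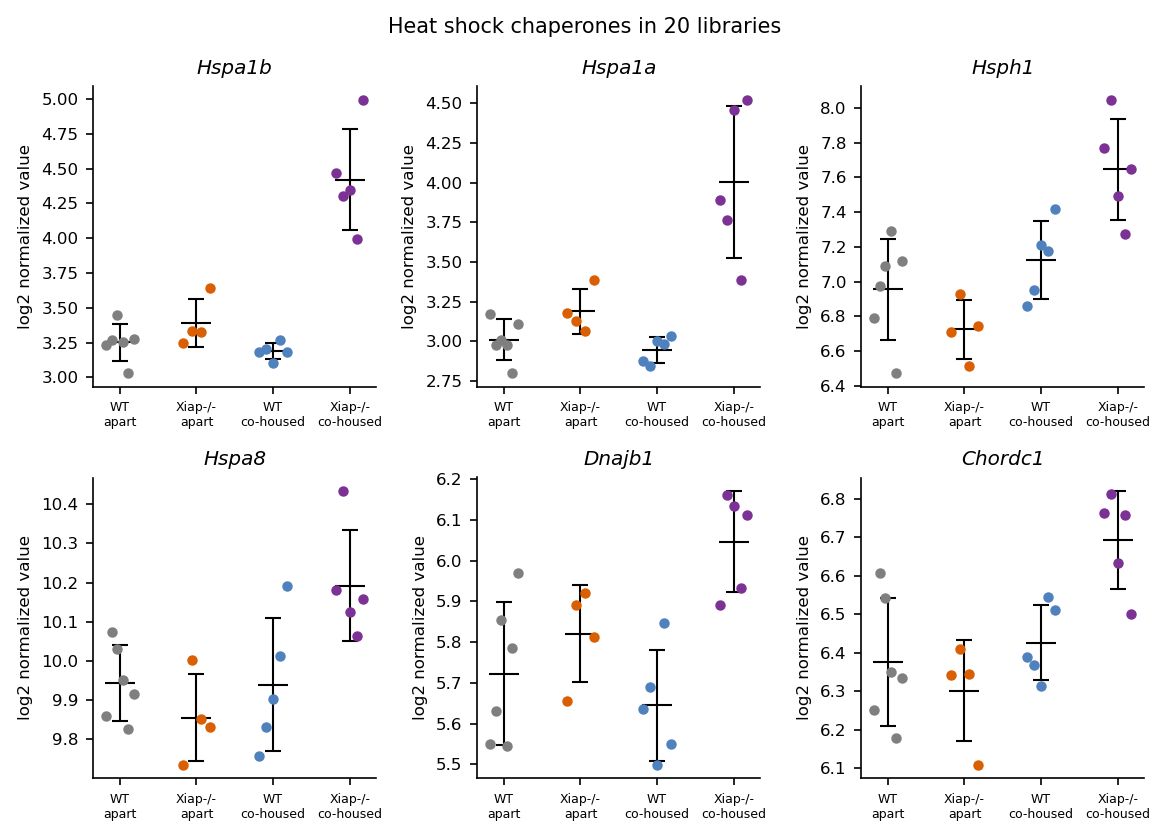
Levels of 6 heat shock chaperones (log2 normalized value) in each of the 20 libraries, by group, with the group mean and SD as lines. For Hspa1b the 5 co-housed Xiap-/- libraries sit between 4.00 and 5.00, above all others, and for the other 5 genes that group has the highest mean while at least 1 of its libraries lies within the range of another group.

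Across all tested genes the differences of differences were small. Their 5th and 95th percentiles were -0.27 and 0.27, next to a median standard error of 0.14. The lowest was -1.43 (Tymp) and the highest 1.37 (Ubd), and 5 genes exceeded 1 in size, namely Tymp, Ubd, Sco2, Hspa1b and H2-Aa. At an unadjusted p under 0.05 lay 671 genes (7.05%), where 476 would fall by the level of the test alone. After Hspa1b, the smallest adjusted p was 0.336.

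The genotype differences of the 2 housings come from different mice. Over 9521 genes, which are not independent of each other, they correlated with Pearson's r = 0.37 and Spearman's rho = 0.36, and 62.5% of genes had the same sign. Their SD across genes was 0.16 in mice housed apart and 0.14 in co-housed mice.

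**Figure D2:**
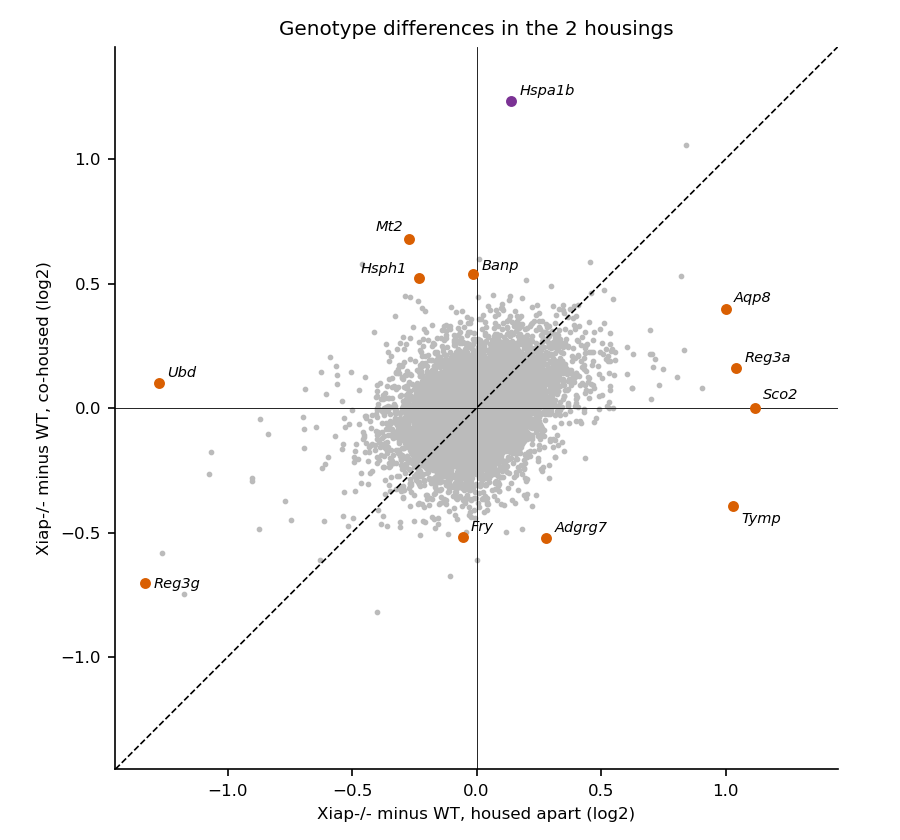
Genotype difference (Xiap-/- minus wild type, log2) of each of the 9521 tested genes in mice housed apart (x axis) and in co-housed mice (y axis), with the dashed line where both are equal. Hspa1b lies at 0.14 on the x axis and 1.23 on the y axis, above the line, and Sco2 at 1.12 and 0.00, below it.

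The 24 genes with the smallest p were split evenly, 12 above and 12 below 0. In 20 of the 24 the genotype difference had opposite signs in the 2 housings, a share that choosing by this test favours. Xiap-/- housed apart was the group farthest from the others in 9 of them, co-housed Xiap-/- in 8, co-housed wild type in 5 and wild type housed apart in 2. Over all tested genes the shares were 35.4%, 18.5%, 28.5% and 17.7% in the same order. Apart from Hspa1b, their adjusted p ran from 0.336 to 0.477, so none of the values that follow passed the threshold. Among the 24 were 3 predicted genes.

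Sco2, which encodes a copper chaperone of cytochrome c oxidase, had the lowest value of the 24. It measured 6.61 to 7.47 in wild-type mice housed apart, with a median of 7.14, and 8.02, 7.99, 8.68 and 8.17 in Xiap-/- mice of that housing. Co-housed wild-type mice had 7.58, 7.04, 6.89, 7.38 and 7.70, and co-housed Xiap-/- mice 7.05, 7.31, 7.17, 7.15 and 7.93. All 4 Xiap-/- libraries housed apart lay above the other 16, while the co-housed genotypes overlapped. The genotype difference was 1.12 ± 0.19 (SE) housed apart and 0.00 ± 0.19 co-housed, and the difference of differences was -1.11 ± 0.27 (95% interval -1.68 to -0.55, adjusted p = 0.393).

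Tymp, thymidine phosphorylase, overlaps Sco2 in the genome. On chromosome 15 (GRCm38, both on the minus strand) Sco2 spans 89371637 to 89373846 and Tymp 89371931 to 89377039. Of the 426 stretches of 75 bases in the last 500 bases of Tymp, 100% also occurred in Sco2 transcripts, and 31.7% of those of Sco2 occurred in Tymp. Tags from the last 500 bases of Tymp can therefore not be told from tags of Sco2, while most stretches at the end of Sco2 do not occur in Tymp. Tymp was chosen after its values were seen. It had 4.78, 5.22, 5.04 and 5.28 in Xiap-/- mice housed apart, against 3.97 to 4.18 in wild-type mice. After co-housing it had 4.60, 4.11, 4.13, 4.69 and 5.69 in wild-type and 3.95, 5.20, 3.86, 3.86 and 4.36 in Xiap-/- mice. Both co-housed groups spread more widely than the wild-type mice housed apart, and the difference of differences was -1.43 ± 0.39 (95% interval -2.26 to -0.60, adjusted p = 0.477).

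Mt2 and Mt1 encode metallothioneins, small proteins that bind zinc and copper and are induced by metals through the factor MTF1. Their promoters are shown because both genes, which lie side by side on chromosome 8 (Mt2 at 94172664 to 94173568, Mt1 at 94179082 to 94180327), had values above 0. Capitals mark the core of the metal response element, TGCACNC or TGCGCNC, on either strand. The window of Mt2 is at chr8:94172368-94172667 and that of Mt1 at chr8:94178839-94179138, both on the plus strand (RefSeq, GRCm38.p6). These windows are set by the RefSeq starts, which differ from the GENCODE gene starts given above.
Mt2: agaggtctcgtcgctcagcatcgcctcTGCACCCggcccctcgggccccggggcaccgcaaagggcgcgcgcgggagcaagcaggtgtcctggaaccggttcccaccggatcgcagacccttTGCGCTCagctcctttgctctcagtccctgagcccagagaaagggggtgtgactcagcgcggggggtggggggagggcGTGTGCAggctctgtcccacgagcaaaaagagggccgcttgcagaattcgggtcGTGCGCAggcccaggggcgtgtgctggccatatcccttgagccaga
Mt1: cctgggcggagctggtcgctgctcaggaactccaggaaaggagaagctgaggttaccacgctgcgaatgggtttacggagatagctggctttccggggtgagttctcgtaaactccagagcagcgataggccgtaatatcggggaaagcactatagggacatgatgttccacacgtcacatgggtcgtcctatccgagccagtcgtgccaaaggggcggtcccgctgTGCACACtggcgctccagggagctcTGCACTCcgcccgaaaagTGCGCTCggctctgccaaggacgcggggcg

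The window of Mt2 held 4 matches and that of Mt1 held 3, and 25.7% of all 32851 promoters held at least 1. Mt2 had 6.58 to 7.32 in wild-type mice housed apart, with a median of 6.79, and 6.43, 6.87, 6.53 and 6.59 in Xiap-/- mice of that housing. After co-housing it had 6.05, 6.12, 6.15, 6.79 and 6.36 in wild-type and 7.23, 6.77, 6.57, 7.10 and 7.18 in Xiap-/- mice. Of the co-housed libraries, 3 Xiap-/- ones lay above all wild-type ones, and co-housed wild type was the group farthest from the others. For Mt2 the difference of differences was 0.95 ± 0.23 (95% interval 0.47 to 1.43, adjusted p = 0.393).

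Mt1 had 9.24 to 9.94 in wild-type mice housed apart, with a median of 9.80, and 9.19, 9.54, 9.55 and 9.27 in Xiap-/- mice of that housing. After co-housing it had 8.95, 9.16, 9.08, 9.50 and 9.47 in wild-type and 9.46, 9.48, 9.33, 9.51 and 9.80 in Xiap-/- mice. Both pairs of groups overlapped, and its difference of differences was 0.58 ± 0.18 (adjusted p = 0.501). Of the 9 tested genes of iron and zinc handling, 6 lay above 0, with a median of 0.11. Of these, 3 lay above 0 at an unadjusted p under 0.05, namely Mt1, Mt2 and the transferrin receptor gene Tfrc (0.47 ± 0.22, adjusted p = 0.697, chosen after its values were seen), against 3.84% of all genes.

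Among the 24, Gm3776 (-0.68 ± 0.16, adjusted p = 0.336) is a glutathione transferase-like gene of which 82.4% of the 3′ stretches also occurred in Gsta1. It had 5.09, 4.90, 5.43 and 4.92 in Xiap-/- mice housed apart, above all other libraries, and 4.47, 4.49, 4.67, 4.50 and 4.90 in co-housed Xiap-/- mice. Gsta1, chosen after its values were seen, had genotype differences of 0.91 housed apart and 0.08 co-housed (difference of differences -0.82 ± 0.27, adjusted p = 0.537), and tags of the 2 genes may be split between them. In wild-type mice housed apart Gsta1 was 7.47, 7.12, 7.61 and 7.18 in libraries 1 to 4 and 8.32 and 7.77 in libraries 5 and 6, nearer to the 8.30 to 8.84 of the Xiap-/- mice of that housing. Ces1d, a carboxylesterase, measured 4.78, 4.51, 4.71 and 4.88 in Xiap-/- mice housed apart and 4.44, 4.39, 4.24, 4.28 and 4.69 in co-housed ones, against 3.86 to 4.15 and 4.02 to 4.33 in the wild-type groups. In both housings the Xiap-/- mean was the higher one, by 0.70 and 0.22, and the difference of differences was -0.49 ± 0.13 (adjusted p = 0.441).

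Adgrg7, an adhesion receptor of intestinal epithelium, had 6.77, 6.77, 6.91 and 6.76 in Xiap-/- mice housed apart and 6.60, 6.61, 6.50, 5.71 and 5.81 in co-housed ones. Wild-type mice had 6.35 to 6.83 housed apart and 6.62 to 6.93 co-housed. All co-housed Xiap-/- libraries lay below the co-housed wild-type range, and libraries 4 and 5 lay furthest down. For Adgrg7 the difference of differences was -0.80 ± 0.20 (adjusted p = 0.393). The same libraries 4 and 5 were lowest for Apob, the structural protein of chylomicrons, at 9.38 and 9.31, against 10.04, 9.75 and 9.94 in the other co-housed Xiap-/- mice (-0.62 ± 0.19, adjusted p = 0.501).

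Xrn2, Elovl5, Mtch2 and Mysm1 were among the 20 genes with opposite genotype differences in the 2 housings. Xrn2, a nuclear exoribonuclease, had 7.11, 6.90, 7.09, 7.03 and 7.08 in co-housed Xiap-/- mice, below the 7.21 to 7.39 of co-housed wild-type mice, and genotype differences of 0.29 housed apart and -0.28 co-housed (adjusted p = 0.336). Elovl5, an elongase of polyunsaturated fatty acids, had 5.39, 5.30, 5.33, 5.44 and 5.26 in co-housed Xiap-/- mice, above the 4.91 to 5.16 of co-housed wild-type mice. Its genotype differences were -0.18 housed apart and 0.33 co-housed (adjusted p = 0.336). Mtch2, a protein of the outer mitochondrial membrane, had genotype differences of 0.12 and -0.50 (adjusted p = 0.336), and Mysm1, a histone deubiquitinase, had a difference of differences of -0.56 ± 0.14 (adjusted p = 0.393).

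For Sfn, Barx2 and Cyba the Xiap-/- mice housed apart were the low group. Sfn, which encodes stratifin, had 7.82, 7.62, 7.86 and 7.85 there, under all other libraries (0.47 ± 0.13, adjusted p = 0.477). Barx2, a homeobox factor, had 4.54, 4.02, 4.50 and 4.27, and its genotype differences were -0.62 and 0.14 (difference of differences 0.77 ± 0.21, adjusted p = 0.477). Cyba, the shared small subunit of NADPH oxidases, had 7.62, 7.53, 7.84 and 7.57 (0.58 ± 0.15, adjusted p = 0.393). Hipk3, a protein kinase for which co-housed Xiap-/- was the group farthest from the others, had 0.46 ± 0.13 (adjusted p = 0.474).

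The other named genes of the 24 comprised 4 below and 2 above 0. Golga1, a golgin of the trans-Golgi network, had -0.52 ± 0.14, Ganc, a neutral glucosidase, -0.51 ± 0.14, and Ypel2 -0.49 ± 0.13 (adjusted p = 0.393 for each). Ltc4s, which makes leukotriene C4 in tuft cells, had -0.51 ± 0.15 (adjusted p = 0.477). Ppm1b, a protein phosphatase, had 0.47 ± 0.12 (adjusted p = 0.393) and Wipf1, an actin regulator, 0.43 ± 0.12 (adjusted p = 0.477). Outside the 24, Fry had -0.46 ± 0.14 (adjusted p = 0.477) and was chosen after its values were seen.

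**Figure D3:**
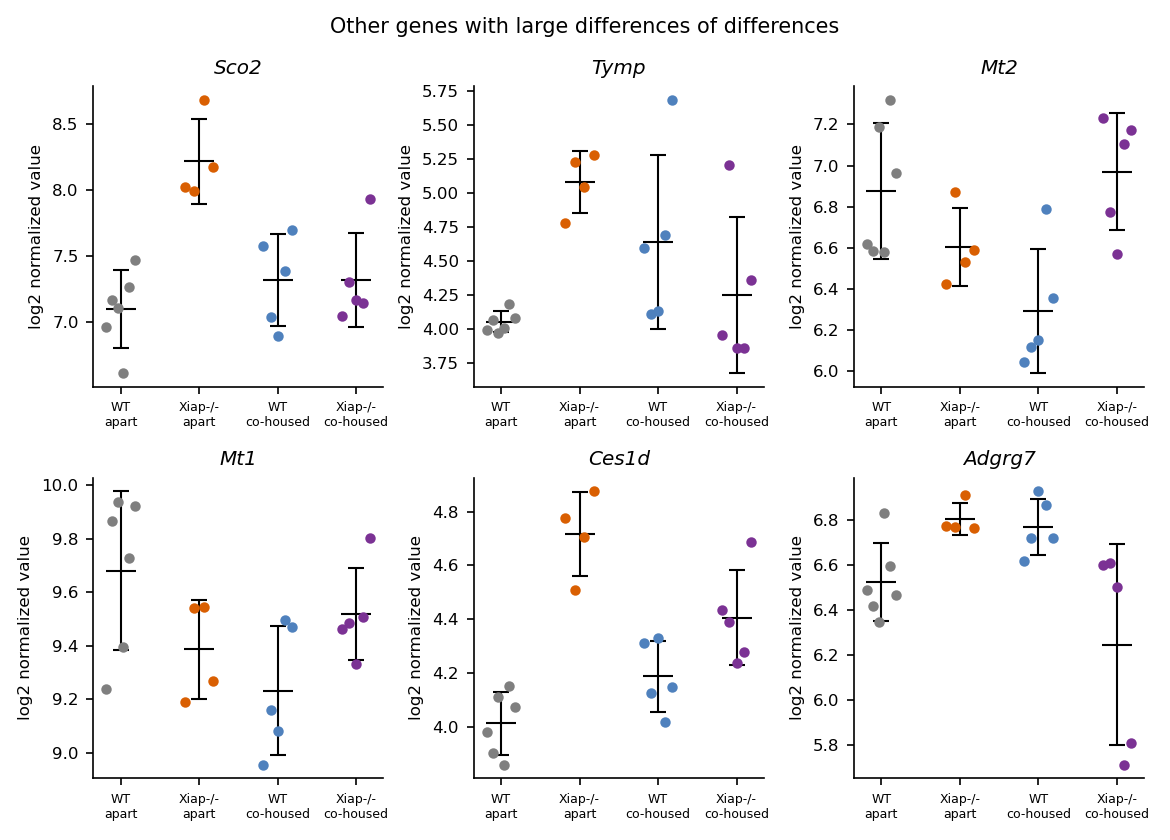
Levels (log2 normalized value) of Sco2, Tymp, Mt2, Mt1, Ces1d and Adgrg7 in each library, by group, with the group mean and SD as lines. For Sco2 the 4 Xiap-/- libraries housed apart sit between 7.99 and 8.68, above the other 16, and for Adgrg7 the co-housed Xiap-/- libraries at 5.71 and 5.81 are the lowest.

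Xenobiotic metabolism, the enzymes that oxidise, conjugate and hydrolyse foreign compounds, lay mostly below 0. Of 26 tested members, 4 were above and 22 below 0, with a median of -0.28, and 6 lay below 0 at an unadjusted p under 0.05 (3.2% of all genes). The median genotype difference was 0.42 in mice housed apart and 0.13 in co-housed mice. Xiap-/- housed apart was the group farthest from the others for 21 of the 26, against 35.4% of all genes. Aadac, a deacetylase of the endoplasmic reticulum, was an example, with 8.22, 8.17, 8.82 and 8.43 in Xiap-/- mice housed apart and 7.78, 7.68, 7.76, 7.89 and 8.19 in co-housed ones, against 7.19 to 8.05 and 7.44 to 7.85 in the wild-type groups. Its difference of differences was -0.60 ± 0.20 (adjusted p = 0.508). In wild-type mice housed apart, Aadac was 8.05 and 7.72 in libraries 5 and 6 against 7.67, 7.19, 7.54 and 7.28 in libraries 1 to 4. Over all alternatives the median of the list stayed between -0.40 and -0.18, the latter without library 3 of the Xiap-/- mice housed apart. The depth stand-in was also highest in Xiap-/- mice housed apart, and with it as a covariate the median was -0.30.

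Genes of fatty acid oxidation under the factor PPAR alpha lay the same way. Of 22 tested, 18 were below 0, with a median of -0.14, and 4 lay below 0 at an unadjusted p under 0.05, against 3.2% of all genes. The count was 0 with the depth covariate (median -0.11) and 3 without the libraries of highest and lowest depth stand-in (median -0.17). Without library 3 of the Xiap-/- mice housed apart the median was -0.052. Hadha, which carries out steps of mitochondrial beta-oxidation, had -0.31 ± 0.13 (adjusted p = 0.637). Aqp8, a water channel, had 4.64, 4.79, 5.41 and 4.95 in Xiap-/- mice housed apart, above the other 16 libraries, and 4.53, 4.15, 4.21, 4.49 and 4.38 in co-housed ones. Its difference of differences was -0.60 ± 0.18 (adjusted p = 0.477). Such a pattern, with Xiap-/- libraries housed apart above all 16 others, was found in 16 genes (0.168%), and the reverse pattern in 17 (0.179%).

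Cholesterol synthesis genes lay on the other side, with 15 of 21 tested above 0 (49.1% of all genes), a median of 0.12 and 3 above 0 at an unadjusted p under 0.05 (3.84% of all genes). Cyp51, a sterol demethylase, had 6.91, 6.71, 6.75 and 6.67 in Xiap-/- mice housed apart, against 7.08 to 7.36 in wild-type mice, and 6.89, 7.02, 7.18, 7.02 and 6.76 in co-housed Xiap-/- mice. Its difference of differences was 0.34 ± 0.12 (adjusted p = 0.548).

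Epithelial defence genes included members in both directions. Of 12 tested, 10 lay above 0, with a median of 0.41. Over all 19 members in the file, with no minimum mean, the median was 0.19. In all 12 tested members the Xiap-/- mice housed apart were the group farthest from the others, against 35.4% of all genes. The median genotype difference was -0.58 in mice housed apart and -0.21 in co-housed mice, and 4 members lay above 0 and 1 below at an unadjusted p under 0.05 (3.84% and 3.2% of all genes). Pigr, which encodes the transporter of IgA into the gut lumen, had 12.36, 12.08, 12.15 and 12.15 in Xiap-/- mice housed apart, against 12.12 to 13.05 with a median of 12.80 in wild-type mice. After co-housing it had 12.72, 12.76, 12.67, 12.48 and 12.45 in wild-type and 12.66, 12.69, 12.68, 12.71 and 12.48 in Xiap-/- mice, where the genotypes overlapped fully. Its difference of differences was 0.57 ± 0.18 (95% interval 0.20 to 0.93, adjusted p = 0.501).

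Duox2, the oxidase that makes hydrogen peroxide at the epithelial surface, was chosen after its values were seen. It had 5.12, 4.88, 4.78 and 4.96 in Xiap-/- mice housed apart, under the other 16 libraries, and 5.86, 6.29, 6.67, 6.31 and 5.93 in co-housed ones. The wild-type mice housed apart were themselves spread, with libraries 1 to 4 at 6.23, 6.37, 6.64 and 6.46 and libraries 5 and 6 at 5.18 and 5.19. Duox2 had a difference of differences of 0.81 ± 0.36 (adjusted p = 0.697).

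The lectins of the Reg3 family, which act on bacteria at the mucus, did not share a direction. Reg3a had 9.13, 9.41, 9.62 and 9.34 in Xiap-/- mice housed apart, of which 3 lay above the highest wild-type library of that housing, at 9.29. Co-housed wild-type mice had 8.34, 7.95, 8.14, 8.28 and 8.41, and co-housed Xiap-/- mice 8.27, 7.98, 8.48, 8.40 and 8.80. The difference of differences of Reg3a was -0.88 ± 0.31 (95% interval -1.53 to -0.24, adjusted p = 0.565). Reg3g had genotype differences of -1.33 and -0.70 and a difference of differences of 0.63 ± 0.44 (95% interval -0.30 to 1.55, adjusted p = 0.812), and Reg3b had 0.43 ± 0.38 (adjusted p = 0.877).

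MHC class II genes, which present peptides to CD4 T cells and are also made by crypt epithelium, all lay above 0. The 6 tested of 7 had a median of 0.66, and 3 lay above 0 at an unadjusted p under 0.05 (3.84% of all genes). With the depth covariate this count was 1 and the median 0.62, and without the libraries of highest and lowest depth stand-in they were 6 and 0.82. H2-Aa, chosen after its values were seen, had 7.14 to 8.98 in wild-type mice housed apart, with a median of 8.59, and 7.68, 7.80, 7.79 and 8.28 in Xiap-/- mice of that housing. After co-housing it had 8.36, 8.95, 7.93, 7.63 and 7.45 in wild-type and 8.88, 8.27, 8.66, 8.91 and 8.49 in Xiap-/- mice. The wild-type libraries spanned the range of the others in both housings, and the difference of differences was 1.04 ± 0.47 (adjusted p = 0.697). H2-DMa, which helps load peptides, had 0.58 ± 0.22 (adjusted p = 0.614) and H2-Ab1 0.70 ± 0.31 (adjusted p = 0.690).

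Markers of immune cells that also carry class II genes, or that lie within the epithelium, were read beside them. Of 14 B and plasma cell markers 4 reached the minimum mean and 3 had a mean below 0, and their 4 values lay above 0 with a median of 0.53, which was 0.13 over the 12 markers in the file with no minimum mean. Their summed level was 6.27 to 7.34 in wild-type and 6.27 to 6.51 in Xiap-/- mice housed apart, and 6.26 to 7.30 and 6.37 to 7.23 in co-housed wild-type and Xiap-/- mice. Igha, the IgA heavy chain, chosen after its values were seen like Cd3e below, had 0.83 ± 0.47 (adjusted p = 0.763). Of 18 myeloid and mast cell markers 4 were tested, with a median of 0.02 and summed levels of 6.90 to 7.09, 6.97 to 7.34, 6.69 to 6.98 and 6.75 to 7.21 in the same order. Of 19 T cell markers 15 were tested, and 14 lay above 0, against 49.1% of all genes. Their median was 0.20 (0.089 without library 3 of the co-housed Xiap-/- mice), and their summed level was 10.31 to 11.15, 10.46 to 11.28, 9.87 to 10.59 and 10.10 to 11.15. Co-housed wild type was the group farthest from the others for 12 of the 15 and co-housed Xiap-/- for 0, against 28.5% and 18.5% of all genes. Cd3e, part of the T cell receptor complex, had 0.49 ± 0.17 (adjusted p = 0.510). The part of these cells in the class II values was not tested.

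Ubd, an interferon- and TNF-inducible ubiquitin-like modifier, had the highest value of all tested genes and was chosen after its values were seen. Xiap-/- mice housed apart had 4.55, 4.29, 4.46 and 4.66, under the other 16 libraries. Wild-type mice of that housing had 6.37, 6.06, 6.79 and 5.94 in libraries 1 to 4 and 4.77 and 4.67 in libraries 5 and 6. After co-housing Ubd had 5.90, 5.90, 5.19, 5.04 and 4.79 in wild-type and 5.47, 5.47, 5.64, 5.44 and 5.30 in Xiap-/- mice. Ubd had a difference of differences of 1.37 ± 0.49 (95% interval 0.33 to 2.42, adjusted p = 0.605).

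Other interferon-inducible genes had small values. Of 21 interferon-stimulated genes 12 lay above and 9 below 0, with a median of 0.07 that was -0.01 with the depth stand-in as a covariate. The tetherin gene Bst2 had 0.39 ± 0.15 (adjusted p = 0.614). Class I genes and their peptide loading had 10 of 13 above 0 and a median of 0.15, which was 0.04 with that covariate. Psmb9, an immunoproteasome subunit, had 0.37 ± 0.16 (adjusted p = 0.639), and the peptide transporter Tap1 0.34 ± 0.16 (adjusted p = 0.697).

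**Figure D4:**
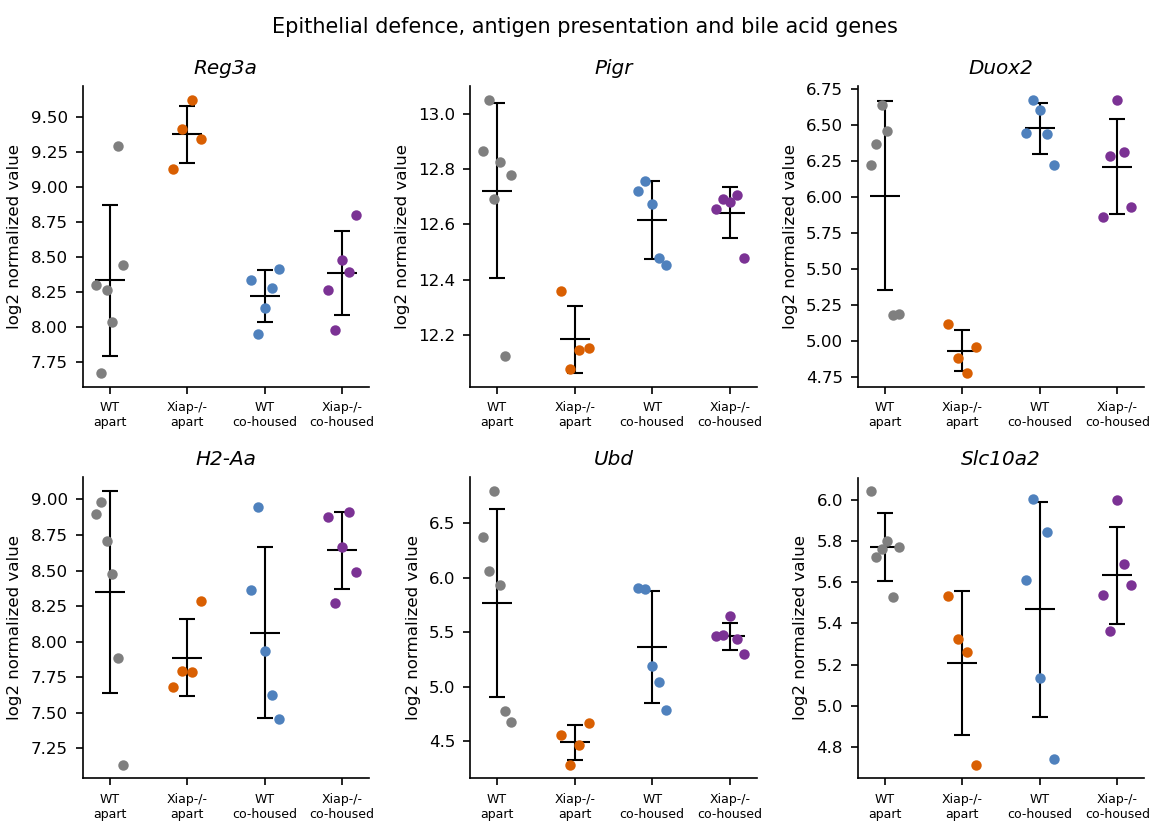
Levels (log2 normalized value) of 6 defence, antigen presentation and bile acid genes in each library, by group, with the group mean and SD as lines. The Xiap-/- libraries housed apart lie lowest for Duox2 and Ubd and 3 of the 4 lie above every other library for Reg3a, while the co-housed genotypes overlap for each of the 6 genes.

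Ileal absorptive and bile acid genes had 7 of 10 above 0, with a median of 0.05. The sign of this median changed without library 5 of the wild-type mice housed apart (-0.03) or library 3 of the co-housed Xiap-/- mice (-0.0011). At an unadjusted p under 0.05, 3 members lay above 0 (3.84% of all genes). Slc10a2, the transporter that takes bile acids up, had 5.53, 5.32, 5.26 and 4.71 in Xiap-/- mice housed apart and 5.54, 5.36, 6.00, 5.69 and 5.58 in co-housed ones. Co-housed wild-type mice were widely spread, at 5.61, 6.01, 5.14, 5.85 and 4.74. Slc10a2 had a difference of differences of 0.73 ± 0.28 (adjusted p = 0.614). Fabp6, which binds bile acids in the cytosol, had 0.67 ± 0.28 (adjusted p = 0.643), and Slc51a, a subunit of the exporter, 0.43 ± 0.15 (adjusted p = 0.540).

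Paneth cell products held no gene past the threshold, which 0.0105% of all tested genes passed. Of 11 tested alpha-defensins 3 lay above 0, with a median of -0.07, and of 14 other Paneth cell products 2 lay above 0, with a median of -0.11. At an unadjusted p under 0.05, 0 of the 11 and 2 of the 14 lay below 0, against 3.2% of all genes. With array quality weights these counts were 3 and 3. Defa24 had 0.06 ± 0.19 (95% interval -0.33 to 0.45, adjusted p = 0.972), Lyz1, lysozyme, -0.14 ± 0.18 (adjusted p = 0.908), Mmp7, which activates the defensins, -0.09 ± 0.26 (adjusted p = 0.972) and the angiogenin Ang4 -0.34 ± 0.20 (adjusted p = 0.778). The lipase gene Pnliprp2 and its cofactor Clps had -0.59 ± 0.24 (adjusted p = 0.632) and -0.52 ± 0.24 (adjusted p = 0.697). Pnliprp2 was 6.54 and 6.52 in libraries 5 and 6 of the wild-type mice housed apart, against 5.61, 5.45, 5.96 and 5.83 in libraries 1 to 4. The sign of the alpha-defensin median changed under 4 of 31 alternatives.

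Cell death and TNF genes, the pathways in which XIAP acts, had medians near 0. Of 26 tested cell death genes 17 lay above 0, with a median of 0.06, and 3 lay above 0 at an unadjusted p under 0.05 (3.84% of all genes). These were Xiap and the gasdermins Gsdmc4 (0.55 ± 0.18, adjusted p = 0.501) and Gsdmc2 (0.39 ± 0.16, adjusted p = 0.614), close copies of each other whose tags may be split. Gsdmc4 had 5.72, 5.30, 5.21 and 5.61 in Xiap-/- mice housed apart and 5.96, 6.18, 5.93, 6.51 and 6.21 in co-housed ones. Of 10 tested TNF and NF-kB response genes 6 lay above 0, with a median of 0.04 and 0 at an unadjusted p under 0.05. Nfkbia, the inhibitor that NF-kB itself induces, had 0.04 ± 0.17 (adjusted p = 0.980). Tnf lay under the minimum mean, at 0.07 ± 0.07 with every gene fitted.

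Other stress programmes were read beside the chaperones. Of 20 genes of the endoplasmic reticulum stress response 8 lay above 0, with a median of -0.04, and Herpud1, part of the machinery that degrades misfolded proteins there, had 0.46 ± 0.17 (adjusted p = 0.571). Of 12 targets of NRF2, the factor of the oxidative stress response, 10 lay above 0, with a median of 0.07. Among them glutathione reductase, Gsr, had 0.40 ± 0.17 (adjusted p = 0.637) and Gpx2 0.39 ± 0.26 (adjusted p = 0.803). Libraries 5 and 6 of the wild-type mice housed apart had 7.60 and 7.67 of Gsr, against 8.21 to 8.36 in libraries 1 to 4 and 7.32 to 7.67 in the Xiap-/- mice of that housing. Of 13 immediate early genes, which respond within minutes to stress or growth factors and to tissue handling, 11 lay above 0, with a median of 0.12. With array quality weights this median was 0.22, and that of the heat shock list 0.13. Wild type housed apart was the group farthest from the others for 7 of the 13, and co-housed Xiap-/- for 4. The median genotype difference of the immediate early genes was -0.11 housed apart and 0.02 co-housed, against 0.01 and 0.20 for the heat shock list. Ier5, an immediate early gene that acts on HSF1, had 0.47 ± 0.15 (adjusted p = 0.501).

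Other lists of epithelial cell types had medians between -0.10 and 0.07. Stem cell genes had a median of 0.02 over 15 genes, with Rnf43 at -0.24 ± 0.12 (adjusted p = 0.697), and cell cycle genes 0.07 over 29, with Mcm6 at 0.34 ± 0.12 (adjusted p = 0.552). Goblet cell genes had 0.06 over 15 and proximal absorptive genes -0.03 over 21. Enteroendocrine genes had -0.07 over 16, with Chgb at -0.53 ± 0.16 (adjusted p = 0.477), and tuft cell genes -0.10 over 10. Of these medians, those of the stem, goblet, absorptive and enteroendocrine lists changed sign under at least 1 alternative. Clock genes had a median of 0.13 over 14, with Arntl at -0.30 ± 0.13 (adjusted p = 0.637). Mitochondrially encoded genes had 0.18 over 8, which was -0.02 with the depth stand-in as a covariate and 0.04 after quantile normalization.

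**Figure D5:**
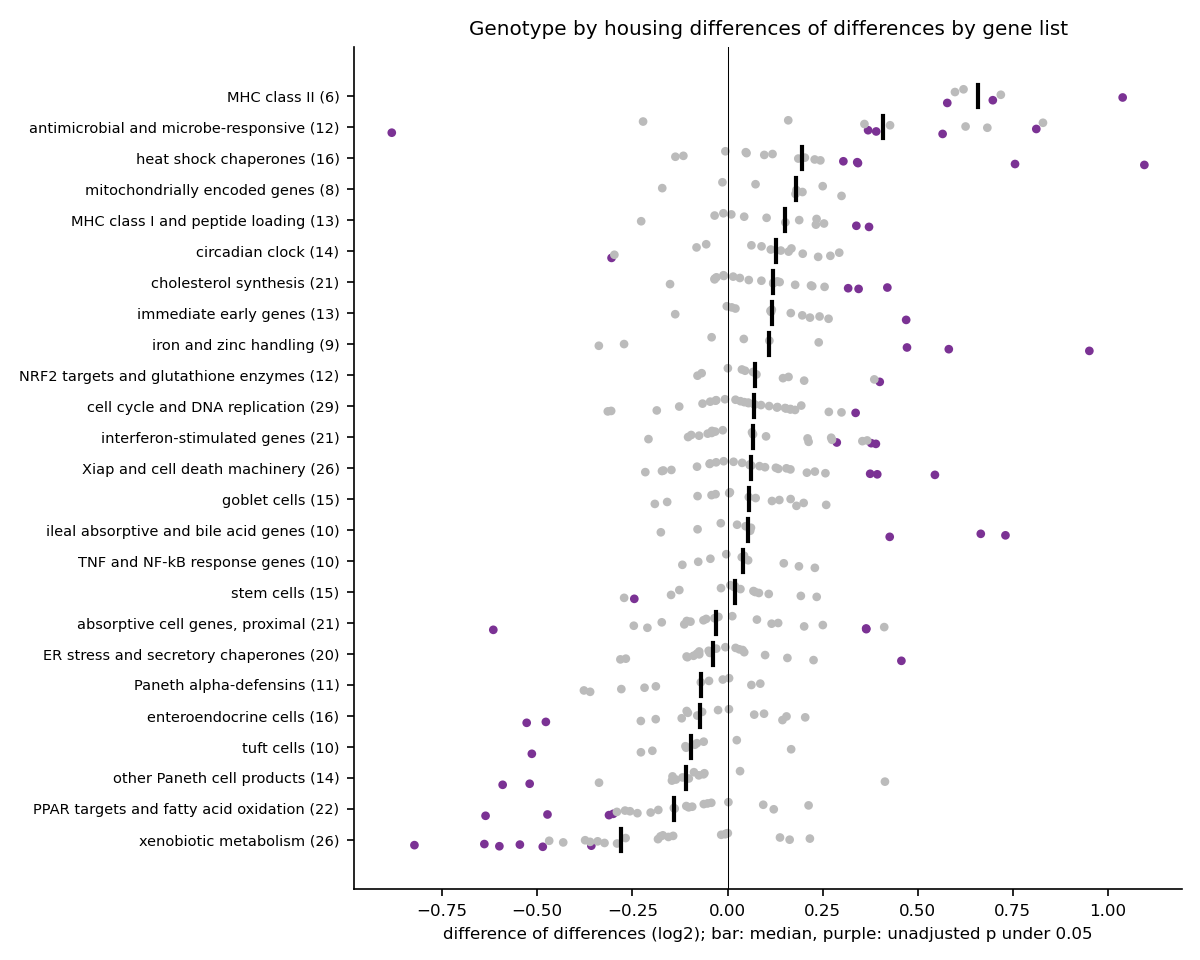
Difference of differences (log2) of each tested member of 25 gene lists, with 1 dot per gene, a bar at the list's median and purple dots for an unadjusted p under 0.05. The heat shock list has its median at 0.19 and 5 purple dots, all above 0, and the xenobiotic list its median at -0.28 and 6 purple dots, all below 0.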

How the data were processed

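RNA from small intestinal crypts of 20 mice was measured by sequencing of 3′ ends with unique molecular identifiers, per the labels. The authors deposited 1 table of normalized values on a log2 scale, from -3.88 to 16.30. DESeq2 1.18.1 and GRCm38.p6 are named per the submitters' processing notes. The transformation, the aligner and the counter are not given in the sources used here, so depth is unknown and no counting interval is given. If the transformation shrinks low values, differences of weakly expressed genes are understated.

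No pseudocount was added. With limma 3.58.1 (R 4.3.3), 1 model of 4 group means was fitted to 20 libraries (16 residual degrees of freedom, variance trend, robust moderation) over 9521 genes with a mean of at least log2 of 10. Tests are two-sided, with Benjamini-Hochberg adjustment over all tested genes and a threshold of 0.05. The script was tested on simulated data. Errors of differences are model standard errors. The labels do not name cages, so p-values measure the spread between these libraries, taken as independent.

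Named are genes past the threshold, then those with the next smallest p, up to 24 in all, from each list the 2 members with the smallest p and the member with the highest mean (some not used here), and genes fixed by name. Any gene outside this rule is marked in the text. Genes and lists were chosen with earlier results of these data known. Positions are from GENCODE M21, which held 97.8% of tested symbols, and no gene is named for 24 date-like symbols. The depth stand-in is the share of genes with mean below -3 that stood more than 0.015 above their own median. Alternatives covered filters, moderation, weights, scaling, depth, replicate number and leaving out each library.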

Additional observations from a re-analysis of the deposited data

Results flagged for a closer look

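Hspa1b met the test of a difference between the housings itself, with a difference of differences of 1.10 on the log2 scale.

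In 320 sets of a named gene and a group of 4 to 6 libraries, 19 held a library far from the others by Dixon's criterion, and chance gives about 1 in 20. Among co-housed Xiap-/- libraries these were library 2 for Gm42418 (15.42), library 3 for Bst2 (5.09), library 4 for Lyz1 (11.69) and Ang4 (8.73), and library 5 for Mtch2 (4.68) and Pigr (12.48). Among co-housed wild-type libraries they were library 3 for Fry (3.98), library 4 for Mcm6 (6.74) and library 5 for Lyz1 (11.54). Among Xiap-/- libraries housed apart they were library 1 for Rnf43 (4.55), library 2 for Sfn (7.62) and Reg4 (8.75), library 3 for Adgrg7 (6.91), Reg3b (12.59) and Sccpdh (6.05), and library 4 for Fry (3.54). Among wild-type libraries housed apart they were library 2 for Mospd3 (3.93) and library 3 for Nfkbia (9.04) and Ier5 (6.93).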

How the results depend on the processing

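The count of genes past the threshold was 1, Hspa1b, in the reported fit, and the lowest and highest counts when each of the 20 libraries was left out in turn were 1 and 1. It was also 1 with no filter on the mean, no variance trend, no robust moderation, 1 variance per group, quantile normalization, median centring, the depth stand-in as a covariate, and without the libraries of highest and lowest depth stand-in. With a mean of at least 5 required, which leaves Hspa1b out, the count was 0. Array quality weights gave 4, 2 of them above 0 (Hspa1b, Cyba) and 2 below (Xrn2, Mysm1). Over all alternatives in which it was tested, Hspa1b ranged from 0.95 to 1.20, with adjusted p from 4.61e-05 to 0.0373. The number of genes at an unadjusted p under 0.05 was 382 with the depth covariate and 1185 with array quality weights, against 671. Leaving out 1 library moved the median of 22 of the 25 lists by over 1.5 times or across 0, most often library 3 of the Xiap-/- mice housed apart (13 lists). The exceptions were the heat shock (0.15 to 0.22), antimicrobial (0.33 to 0.53) and MHC class II lists (0.55 to 0.87).

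It was not settled whether the replicate numbers of the titles pair libraries of different groups. Over 27 pairs with the same number, deviations from the group means correlated between -0.42 and 0.36 (median 0.01, 10 pairs over 0.1). Over 122 pairs with different numbers the median was -0.01. Of 20 libraries, 6 correlated best with their own number. These correlations run over all tested genes and cannot exclude pairing. With the replicate block the count was 10, 5 above and 5 below 0, namely Gsta1 (-0.99) and Gm3776 (-0.80), both with adjusted p = 0.00659, Hspa1b (1.06) and Sco2 (-1.29), both 0.0212, Reg3a (-1.04, 0.0322), Duox2 (1.10, 0.0392), Cyba (0.66) and Barx2 (0.82), both 0.0435, and 2 genes not described here.

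Of 2403 alternative values of named genes 11 changed sign, all in genes with values near 0. Leaving out 1 library at a time, Defa24 ran from -0.0206 to 0.161, Mmp7 from -0.211 to 0.0215 and Nfkbia from -0.0499 to 0.121. Defa24 was below 0 without co-housed wild-type library 5 or co-housed Xiap-/- library 2, and was -0.0155 with the depth covariate. Mmp7 was above 0 without library 6 of wild-type mice housed apart, and was 0.00697 with the depth covariate, 0.0743 without the libraries of highest and lowest depth stand-in and 0.0644 with the replicate block. Nfkbia was below 0 without library 3 of wild-type mice housed apart, library 4 of Xiap-/- mice housed apart, co-housed wild-type library 5 or co-housed Xiap-/- library 3. The cause was not tested.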

Other observations

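Libraries 5 and 6 of the wild-type mice housed apart differed from libraries 1 to 4 of that group in genes of several groups, a pattern noticed in the values. Reg3g was 11.80 and 11.73 in them, against 12.92, 13.01, 13.77 and 13.24 in libraries 1 to 4, and 11.40, 11.13, 11.81 and 11.31 in the Xiap-/- mice housed apart. Duox2, Ubd and Igha lay lowest in the same 2 libraries, with Igha at 4.61 and 4.92 against 5.95, 6.31, 5.49 and 5.65. In the enteroendocrine gene Reg4 they had 8.22 and 8.25 against 7.56, 7.45, 7.57 and 7.64, in Clps 8.41 and 8.21 against 7.73, 7.55, 7.69 and 7.61, and in Gpx2 9.48 and 9.51 against 9.92, 10.70, 10.49 and 10.41. In each of these genes both libraries lay on the side of the Xiap-/- mice housed apart. The wild-type mean housed apart, from which the difference of differences of these genes is taken, includes libraries 5 and 6 as well as libraries 1 to 4. Other genes parted libraries 5 and 6 from each other. Pigr was 12.12 in library 5 and 12.78 in library 6, against 12.69 to 13.05 in libraries 1 to 4. Aqp8 was 4.36 and 3.88, against 3.72 to 4.03.

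Gm42418, a noncoding transcript on chromosome 17 that overlaps ribosomal RNA sequence, was chosen after its values were seen. Its genotype difference was -0.84 in mice housed apart and -0.10 in co-housed mice (difference of differences 0.73 ± 0.30, limma adjusted p = 0.614).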
